A study of Mus musculus with 10 samples.

Results

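Slc4a1, Rhag, Epb42, Sptb, Ank1, Kel, Ermap and Add2 encode proteins of the red cell membrane, and their transcripts were followed over 10 arrays of mouse spleen and lymph node RNA. They were taken by gene symbol from the deposited table of values and are 8 of the 19505 genes measured there. Probe sets were selected on their mean over the 10 arrays, the highest being kept, but each of these genes had 1 probe set, so that mean decided nothing here. The genes were put together with earlier results of these arrays known, among them the high lymph node difference of Rhag.

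The membrane of a red cell is a lipid bilayer fastened to a mesh of spectrin, which lets the cell deform in capillaries without breaking. Ankyrin and protein 4.2 tie spectrin to the anion exchanger band 3, adducin caps the actin at the corners of the mesh, and several surface proteins of the same membrane carry blood group antigens. Erythroblasts make most of these proteins as they mature, and in adult mice the spleen can serve as a site of red cell formation beside the bone marrow.

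The study introduced CD4+ T cells carrying either GFP or oncogenic Vav1, a guanine nucleotide exchange factor activated by antigen receptors, into immunocompromised mice and collected tissue 6 months later. The strain is labelled C57BL/10, the genotypes read WT + GFP and WT + Oncogenic Vav1, and GFP arrays are the controls. The spleen gave 2 GFP arrays (animals CTL2 and CTL4) and 4 oncogenic Vav1 arrays (ONCO1 to ONCO4). The lymph node gave 2 GFP arrays (CTL1 and CTL2) and 2 oncogenic Vav1 arrays (ONCO2 and ONCO3), so that 3 of 7 named animals appear with both tissues. The Vav1 mutation, the vector and its promoter, the age of the animals and the defect of the hosts are not given in the sources used here. The values are log2 array intensities after RMA (background correction, normalization between arrays and summary of the probes), so a difference of 1 is a doubling, and levels of different probe sets are not set against each other.

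The labels call all samples CD4+ T cells, but transcripts of other cells were measured throughout: the mean log2 level of 7 B cell markers lay between 9.66 and 11.4 on every array. In such mixed samples fewer cells of a type and less RNA per cell cannot be told apart. Vav1 itself differed by 0.45 (SE 0.21, limma adjusted p = 0.137) between constructs in the spleen and by 0.11 (SE 0.24, adjusted p = 0.8) in the lymph node. The array labelled oncogenic Vav1 lymph node replicate 1 correlated at 0.987 to 0.992 with the oncogenic Vav1 spleen arrays over 19572 probe sets and at 0.962 with the other array of its own group. Coch, a transcript of spleen stroma, lay at 5.24 and 5.95 in the GFP lymph node arrays and at 8.93 and 9.64 in those labelled oncogenic Vav1 lymph node, against 8.91 to 10.5 in the spleen arrays. The Y-linked Kdm5d read 4.97 on the spleen array named ONCO3 and 7.59 on the lymph node array of that name. Coch and Kdm5d were chosen after their values were seen. Counts of the 8 genes and of the other red cell lists are given below with and without the oncogenic Vav1 lymph node arrays. So are the lymph node counts of platelet, T cell and fat cell markers, while counts of the remaining lists are given with all arrays only. Oncogenic Vav1 lymph node replicate 1 correlated at 0.954 to 0.956 with the GFP lymph node arrays. Replicate 2 correlated at 0.937 with those and at 0.962 to 0.975 with the oncogenic Vav1 spleen arrays, less closely than replicate 1 did. By Coch and the correlations, the tissue label of the arrays called oncogenic Vav1 lymph node is in doubt. The mean log2 level of 7 fat cell markers did not reach spleen levels on these arrays. It was 7.69 and 8.85 there, against 5.29 to 6.76 on the spleen arrays and 11.6 on the GFP lymph node arrays. Which tissue these arrays hold was not tested. Where the label does not hold, their comparison with GFP lymph node would hold a tissue difference that cannot be told apart from that of the construct.

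Because the 8 transcripts moved together, the bases before their transcription starts were read from RefSeq (GRCm38.p6, strand of the gene). A window was found for 6 of the 8 genes, and Slc4a1 and Ank1 are named only. Letters bound by GATA factors (AGATAA, its variant AGATAG, the related word TGATAA and its variant TGATAG, on either strand) stood in 5 of the 6 windows of 250 bases and in 26.5% of all 32851 such windows. Letters bound by KLF factors (CCACACCC or CCACCC on either strand) stood in 4 of the 6 windows and in 30.1% of all. The longer of these holds no copy of the shorter, and no GATA letters overlap KLF letters in the windows shown. The 3 windows below, those of Rhag (chr17:40810899-40811148, plus strand), Kel (chr6:41704326-41704575, minus strand) and Ermap (chr4:119189996-119190245, minus strand), are shown because they hold both kinds, as do 6.3% of all windows. Capitals mark the matches, in the orientation in which they stand.
Rhag: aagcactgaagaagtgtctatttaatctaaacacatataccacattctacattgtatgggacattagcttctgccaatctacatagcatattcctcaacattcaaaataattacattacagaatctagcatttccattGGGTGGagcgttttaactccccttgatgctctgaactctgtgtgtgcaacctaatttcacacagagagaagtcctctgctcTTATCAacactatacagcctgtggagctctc
Kel: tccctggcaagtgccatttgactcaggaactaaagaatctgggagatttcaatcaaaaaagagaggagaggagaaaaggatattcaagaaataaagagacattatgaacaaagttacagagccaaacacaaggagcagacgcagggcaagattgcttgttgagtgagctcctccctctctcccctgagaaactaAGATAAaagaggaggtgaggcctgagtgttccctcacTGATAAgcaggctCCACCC
Ermap: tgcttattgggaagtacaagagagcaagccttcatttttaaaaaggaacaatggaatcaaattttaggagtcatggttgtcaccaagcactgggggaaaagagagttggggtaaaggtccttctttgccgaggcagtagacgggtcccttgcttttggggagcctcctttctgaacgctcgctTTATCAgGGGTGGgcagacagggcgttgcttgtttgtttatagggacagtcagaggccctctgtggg
In Rhag, TGATAA lay 31 to 26 bases before the start on the opposite strand. Kel held AGATAA at 56 to 51 and TGATAA at 19 to 14 bases before the start, followed by CCACCC in its last 6 bases. In Ermap the opposite strand carried TGATAA at 67 to 62 and CCACCC at 60 to 55 bases before the start. These matches describe letters in a window and no binding was measured.

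Across the groups, 7 of the 8 genes had the same order of mean levels, with GFP lymph node lowest, then GFP spleen, then oncogenic Vav1 spleen, and oncogenic Vav1 lymph node highest. Add2 departed from it, with GFP spleen (mean 5.96) and GFP lymph node (6.07) overlapping. Arrays of both oncogenic Vav1 groups overlapped for all 8 genes, and those of GFP spleen and oncogenic Vav1 spleen overlapped for Slc4a1 and Epb42. All other neighbours in the order were separate. The 8 genes lay above the 40th percentile of the array on each of the 6 oncogenic Vav1 arrays and all entered the tests. On both GFP lymph node arrays, Rhag, Epb42, Sptb and Kel lay below that percentile (5.64 to 5.84 over the arrays), so low levels there are near background. A further 2 genes, Ank1 and Ermap, did so on 1 GFP lymph node array, and Rhag, Kel and Add2 on 1 GFP spleen array.

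**Figure D1:**
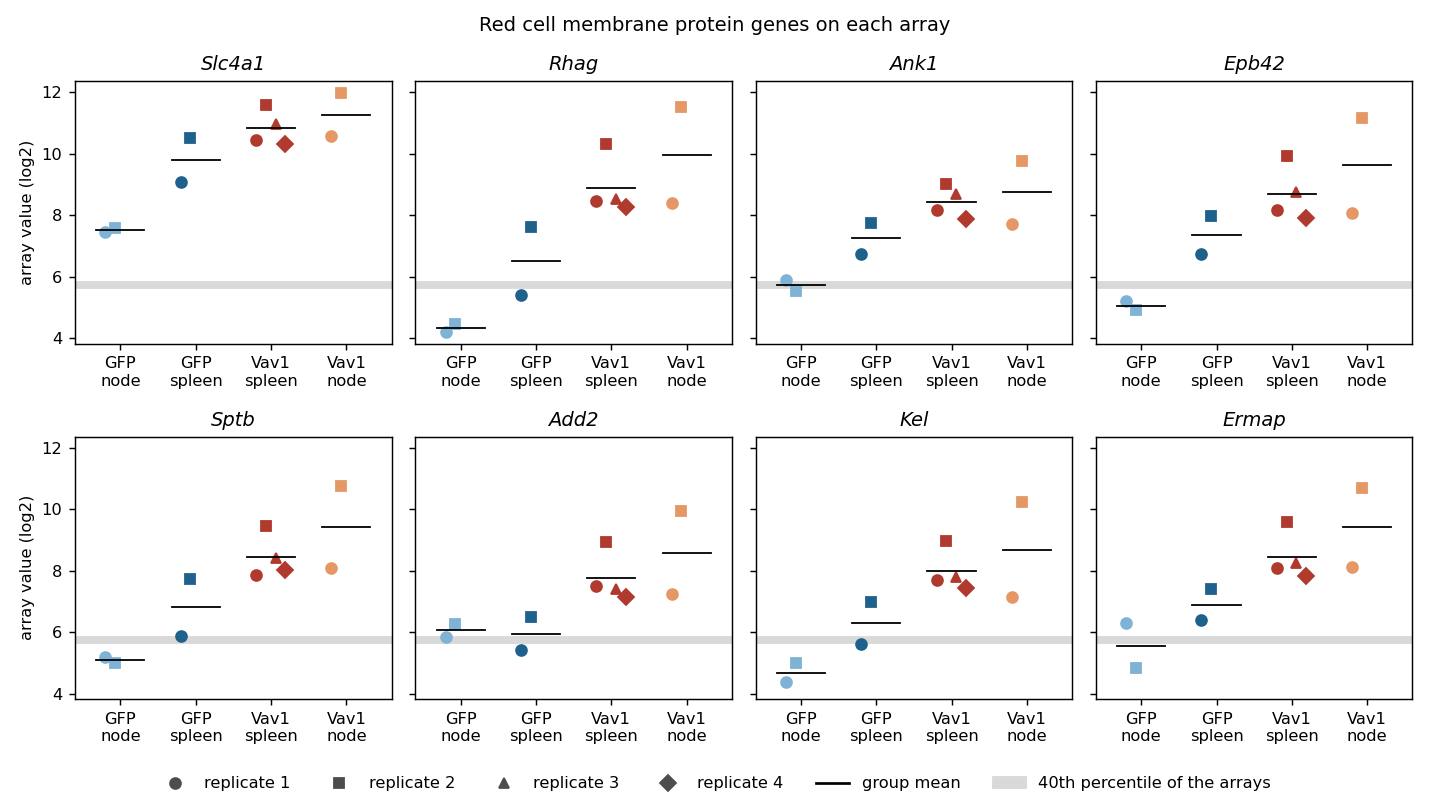
Log2 value of each gene on every array, by group, with symbols for the replicates, a line for the group mean and a grey band for the range of the arrays' 40th percentile. Oncogenic Vav1 lymph node replicate 2 is the highest of the 10 arrays for all 8 genes, and the GFP lymph node arrays lie below the band for Rhag, Epb42, Sptb and Kel.

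Slc4a1 encodes band 3, the chloride and bicarbonate exchanger that anchors the skeleton. It read 7.45 and 7.58 in the GFP lymph node, 9.09 and 10.53 in the GFP spleen, 10.47, 11.58, 10.97 and 10.33 in the oncogenic Vav1 spleen, and 10.58 and 11.98 in the oncogenic Vav1 lymph node. The GFP lymph node arrays were thus clearly apart, while the second GFP spleen array lay among the oncogenic Vav1 arrays. In the lymph node Slc4a1 was higher with oncogenic Vav1 by 3.77 (SE 0.55, limma adjusted p = 0.00106), 13.6-fold. In the spleen the difference was 1.03 (SE 0.47, adjusted p = 0.129).

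Rhag, the Rh-associated glycoprotein, forms an ammonia and gas channel and carries the Rh complex to the surface. It read 4.22 and 4.47 in the GFP lymph node and 5.41 and 7.63 in the GFP spleen. The oncogenic Vav1 arrays read 8.46, 10.32, 8.54 and 8.29 in the spleen and 8.40 and 11.54 in the lymph node, all above every GFP array. Both GFP lymph node values lie below the negative control medians of their arrays (5.46 and 5.38), so they are not above background. The fitted lymph node difference was 5.62 (SE 0.99, adjusted p = 0.00325). Taken against the control medians, the mean of the 2 oncogenic Vav1 lymph node arrays was at least 23.4-fold higher. These arrays lay 3.14 apart, and replicate 1 alone would give a smaller fold. The lymph node difference was known when the genes were put together. In the spleen it was 2.38 (SE 0.86, adjusted p = 0.0636).

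Ank1 and Epb42 encode ankyrin and protein 4.2, the links between band 3 and spectrin. Ank1 read 5.91 and 5.55 in the GFP lymph node, 6.76 and 7.75 in the GFP spleen, 8.18, 9.03, 8.70 and 7.89 in the oncogenic Vav1 spleen, and 7.73 and 9.78 in the oncogenic Vav1 lymph node. Epb42 read 5.21 and 4.92, 6.74 and 7.98, 8.17, 9.95, 8.76 and 7.91, and 8.09 and 11.18 in the same 4 groups. Both genes were lowest in the GFP lymph node. In spleen the groups of constructs were separate for Ank1 and overlapped for Epb42. The lymph node difference was 3.03 for Ank1 (SE 0.59, adjusted p = 0.00563) and the spleen difference 1.20 (SE 0.51, adjusted p = 0.105). For Epb42 it was 4.57 in the lymph node (SE 0.89, adjusted p = 0.00563) and 1.34 in the spleen (SE 0.77, adjusted p = 0.214).

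Sptb and Add2 belong to the skeleton beneath the bilayer, as beta spectrin and beta adducin. Sptb read 5.20 and 4.99 in the GFP lymph node, 5.89 and 7.74 in the GFP spleen, 7.88, 9.47, 8.41 and 8.04 in the oncogenic Vav1 spleen, and 8.10 and 10.77 in the oncogenic Vav1 lymph node. Sptb was higher by 4.34 in the lymph node (SE 0.82, adjusted p = 0.00476) and differed by 1.63 in the spleen (SE 0.71, adjusted p = 0.111). Every oncogenic Vav1 array stood above every GFP array for this gene. Add2 read 5.85 and 6.28 in the GFP lymph node, 5.42 and 6.51 in the GFP spleen, 7.50, 8.96, 7.43 and 7.16 in the oncogenic Vav1 spleen, and 7.24 and 9.94 in the oncogenic Vav1 lymph node. Its GFP arrays overlapped between tissues, and its lymph node difference of 2.52 (SE 0.79, adjusted p = 0.0486) was the smallest of the 8. That call stood close to the threshold and was lost in most runs with 1 array left out. In the spleen Add2 differed by 1.80 (SE 0.68, adjusted p = 0.0749).

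Kel and Ermap encode surface proteins with blood group antigens, Kel an endopeptidase and Ermap a member of the immunoglobulin superfamily. Kel read 4.39 and 5.00 in the GFP lymph node, 5.64 and 7.00 in the GFP spleen, 7.70, 8.98, 7.82 and 7.46 in the oncogenic Vav1 spleen, and 7.14 and 10.24 in the oncogenic Vav1 lymph node. Ermap read 6.30 and 4.84, 6.41 and 7.40, 8.10, 9.60, 8.25 and 7.84, and 8.14 and 10.69 in the same order. No GFP array reached an oncogenic Vav1 array for either gene, and the 2 GFP lymph node arrays lay further apart for Ermap than for any other of the 8. The lymph node difference was 4.00 for Kel (SE 0.85, adjusted p = 0.00883). It was 3.84 for Ermap (SE 0.81, adjusted p = 0.00861). In the spleen Kel differed by 1.67 (SE 0.73, adjusted p = 0.115) and Ermap by 1.54 (SE 0.70, adjusted p = 0.126).

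In the lymph node, all 8 genes passed the threshold of adjusted p under 0.05 as higher with oncogenic Vav1, where 7.87% of the 13393 genes tested were called higher and 18.7% in either direction. Their median difference was 3.92, against -0.0154 over all genes tested. All 8 had oncogenic Vav1 arrays entirely above the GFP arrays, as did 24.2% of all genes. These calls use the spread pooled over all 10 arrays. With the 4 lymph node arrays alone 1 of the 8, Slc4a1, passed (adjusted p = 0.0364), where 3.64% of all genes were called. The other adjusted p reached 0.217. Leaving out a GFP lymph node array left 1 array in that group. The median difference of the 8 genes was then 4.03 without replicate 2 and 4.07 without replicate 1. Fewer of the 8 passed in both fits, and so did a smaller share of all genes. Without oncogenic Vav1 lymph node replicate 2, which carries the name ONCO3, the median difference was 2.79 and 7 of the 8 passed, where 11% of all genes were called higher. Without replicate 1 the median was 5.33 and all 8 passed, where 14.6% were. Both GFP lymph node arrays were below their negative control medians for Rhag, Epb42, Sptb and Kel. Against those medians the mean of the oncogenic Vav1 arrays was at least 18.6-fold higher for Epb42, 16.1-fold for Sptb and 9.65-fold for Kel. Replicate 1 read 8.09, 8.10 and 7.14 for these genes, below the means of 9.64, 9.43 and 8.69. In GFP animals 7 of the 8 were also higher on both spleen arrays than on both lymph node arrays, which bears on this comparison where the tissue label is in doubt.

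In the spleen none of the 8 passed (limma, pooled spread), although all differences were positive, from 1.03 to 2.38 with a median of 1.59 against 0.0019 over all genes. Of all genes tested 26.8% were called there, 17.1% as higher. At an unadjusted p under 0.05, 5 of the 8 passed. The share of all genes at that threshold was not counted, but it is at least those 26.8%. For 6 of the 8, all but Slc4a1 and Epb42, every oncogenic Vav1 array exceeded both GFP arrays, which held for 30.3% of all genes. The call turned with the arrays used for the spread. With a fit to the spleen arrays only, all 8 passed (adjusted p = 0.00753 to 0.0491), where 39.1% of all genes were called. All 8 also passed without oncogenic Vav1 lymph node replicate 1 or without replicate 2, where 41.2% and 41.4% were called. GFP spleen replicate 1 was the lowest of the 6 spleen arrays for all 8 genes, and without it the median difference was 0.85 and none passed. Without GFP spleen replicate 2 the median was 2.18 and again none passed. The estimate for Slc4a1 was 0.31 and 1.75 in these fits. The median over 5222 negative control probe sets was 5.87 and 5.69 on the GFP spleen arrays and 5.43 to 5.55 on the oncogenic Vav1 spleen arrays. With that median as a covariate the spleen differences had a median of 3.00 and none of the 8 passed.

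**Figure D2:**
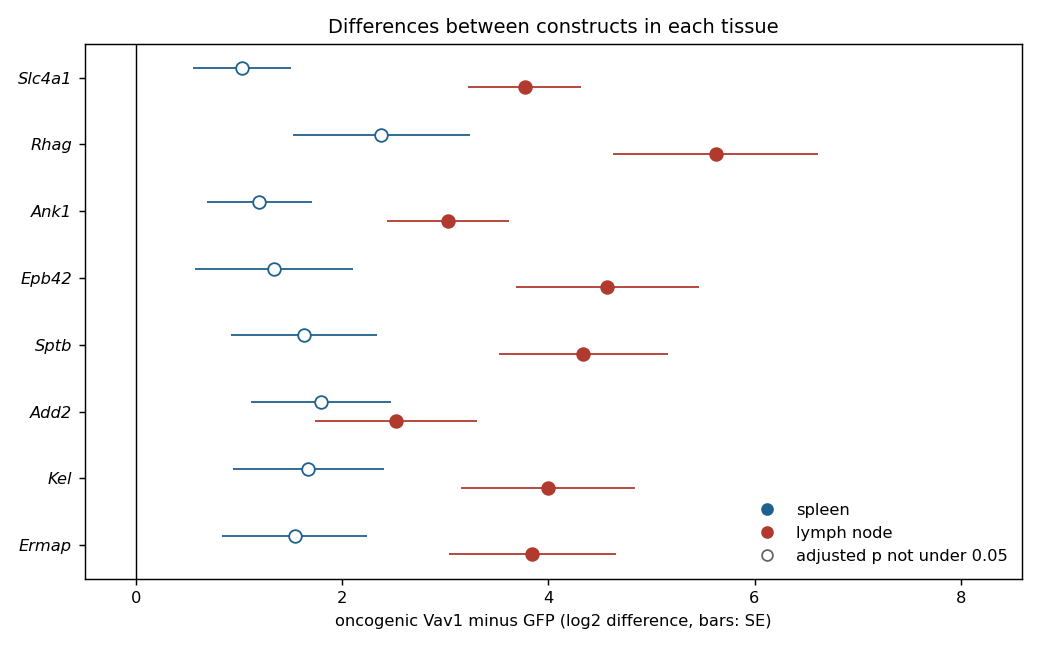
Oncogenic Vav1 minus GFP (log2 difference, bars: SE) for each gene in spleen (blue) and lymph node (red), with filled symbols where limma's adjusted p was under 0.05. All 8 lymph node symbols are filled, from 2.52 for Add2 to 5.62 for Rhag, and the 8 spleen symbols are open, from 1.03 to 2.38.

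Whether the construct difference itself differed between tissues was tested as an interaction. For Slc4a1 the lymph node difference exceeded that of the spleen by 2.83 (SE 0.73, adjusted p = 0.0406), and it was the 1 call among the 8 genes, where 8.04% of all genes were called and 0.933% in this direction. Rhag (3.37, SE 1.31) and Epb42 (3.33, SE 1.18) had larger estimates with wider errors, with adjusted p of 0.144 and 0.112. Add2 had the smallest, 0.82 (SE 1.03, adjusted p = 0.656). No gene passed without GFP spleen replicate 2 (lowest adjusted p = 0.156), oncogenic Vav1 spleen replicate 1 (0.0879) or 4 (0.0794), or GFP lymph node replicate 1 (0.156) or 2 (0.126). All 8 passed without oncogenic Vav1 lymph node replicate 1, where 31.6% of all genes were called.

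Between tissues of GFP animals, 7 of the 8 genes were lower on both lymph node arrays than on both spleen arrays, as were 33.0% of all genes. Slc4a1 fell by 2.34 (SE 0.55, adjusted p = 0.016), the 1 call among the 8, where 16.0% of all genes were called and 4.41% as lower. The other estimates ran from -2.32 for Epb42 (SE 0.89, adjusted p = 0.105) to 0.06 for Add2 (SE 0.78, adjusted p = 0.968). The Slc4a1 call was lost without GFP spleen replicate 2 or without either GFP lymph node array, while 6 of the 8 passed when either oncogenic Vav1 lymph node array was left out (32.1% of all genes each time) and 7 without both arrays named ONCO3 (35.4%). In oncogenic Vav1 animals none of the 8 passed limma's test between tissues, adjusted or at an unadjusted p under 0.05, and 0.0373% of all genes passed after adjustment. The estimates there ran from 0.35 for Ank1 to 1.13 for Rhag (adjusted p = 0.589 to 0.799), and all 8 were below 0 without replicate 2 of the lymph node. Without replicate 1 the median was 2.27 and 7 of the 8 passed as higher in the lymph node, where 28.6% of all genes were called.

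The 3 animals named in both tissues differed in direction. In CTL2, which carried GFP cells, 7 of the 8 genes read lower in the lymph node, with Slc4a1 at 9.09 in the spleen and 7.58 in the lymph node, and Add2 read 0.86 higher. In ONCO2 all 8 read lower in the lymph node, by 1.01 for Slc4a1 up to 1.92 for Rhag, with Rhag at 10.32 and 8.40. In ONCO3 all 8 read higher in the lymph node, by 1.02 for Slc4a1 and up to 3.00 for Rhag, from 8.54 to 11.54. The ONCO3 pair is the one whose Y-linked transcripts differ, and whether both come from 1 animal was not tested.

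**Figure D3:**
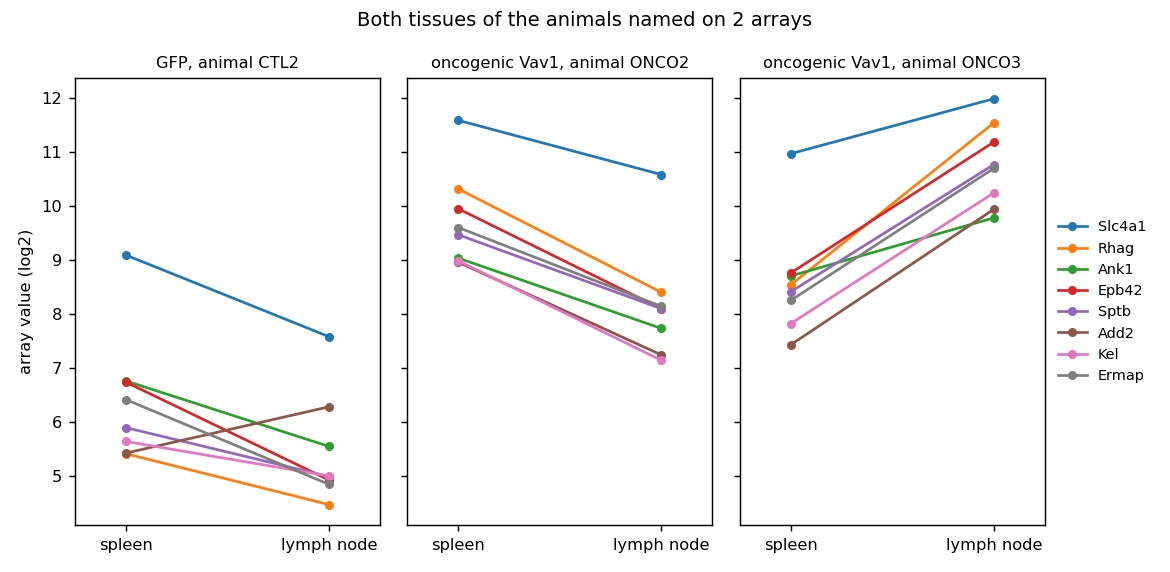
Log2 value of each gene in the spleen and lymph node array of the animals CTL2, ONCO2 and ONCO3, joined by lines. The lines fall for all 8 genes in ONCO2 and for 7 in CTL2 (Add2 rises), and rise for all 8 in ONCO3.

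Within groups the 8 genes moved as a block. Oncogenic Vav1 lymph node replicate 2 exceeded replicate 1 by 1.41 to 3.14, with a median of 2.68, while the median absolute gap of all genes was 0.33. GFP spleen replicate 2 exceeded replicate 1 by 0.99 to 2.22, with a median of 1.30 against 0.18 for all genes. The 2 GFP lymph node arrays showed no shared direction, since 4 genes were higher in replicate 2 and 4 lower. Among the oncogenic Vav1 spleen arrays, replicate 2 (ONCO2) was highest for all 8 genes. Over the 28 pairs of genes, Pearson r across the 10 arrays ran from 0.81 to 0.995 with a median of 0.971, and across deviations from the group means from 0.824 to 0.987. These points share arrays and are a description. Sptb followed the mean of the other 7 most closely (r = 0.996) and Add2 least (0.907), although the deviations of Add2 within groups followed them at 0.968.

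The 8 other named genes whose levels were most like the mean of the set over the 10 arrays were Cpox, Hemgn, Nxpe2, Car1, H4c12, Hbq1b, Tmcc2 and Mfsd2b, with r from 0.984 to 0.998. The median r of all genes tested was -0.089, and 113 genes, 7 of the 8 among them, reached 0.95. Because they were picked for following the 8 genes over these arrays, their construct differences are a description and carry no test here. Tmcc2 and Cpox also stand in lists read below, and their calls there are not independent of this likeness. Cpox, an enzyme of haem synthesis, headed the genes most alike and differed by 3.02 in the lymph node. The difference was 5.10 for Car1, the carbonic anhydrase of red cells, and 4.04 for Hemgn, a nuclear protein of blood-forming cells. It was 3.05 for Hbq1b, an alpha-like globin, and 2.53 for Mfsd2b, which exports sphingosine-1-phosphate from red cells and platelets. H4c12, a histone gene, had a smaller difference of 1.30.

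A further 18 genes for proteins of this membrane were read in the same way. In the lymph node 4 of the 18 rose and 1 fell, with a median difference of 1.10, where 7.87% of all genes were called higher and 10.8% lower. Without oncogenic Vav1 lymph node replicate 1, 15 of 18 rose and 2 fell (14.6% and 20.4% of all genes), and without replicate 2, 2 of 17 rose and 1 fell (11% and 10.6%). The Rh protein gene Rhd rose by 2.84 (SE 0.61, adjusted p = 0.0095), from 5.62 and 5.59 to 7.35 and 9.54. Tmcc2 rose by 3.35 (adjusted p = 0.02) and Tspo2, a cholesterol-binding protein of erythroblasts, by 2.77 (adjusted p = 0.0311). The adhesion protein gene Icam4 rose too (adjusted p = 0.0157), from 2 GFP arrays below the negative control medians, and its group mean was at least 1.87-fold higher. Oncogenic Vav1 lymph node replicate 1 read 5.64 for Icam4, below the 40th percentile of its array, and replicate 2 read 7.00. Add3, the adducin made in many cell types, went the other way from Add2, with 10.59 and 10.50 in GFP against 9.51 and 9.36 in oncogenic Vav1 lymph node. It fell by 1.11 there (SE 0.16, adjusted p = 0.00119) and by 0.68 in the spleen (SE 0.14, adjusted p = 0.00678). In the spleen 2 of the 18 rose and 1 fell, where 17.1% of all genes were called higher and 9.77% lower. There Dmtn, which bundles actin in the skeleton, rose by 2.36 (SE 0.71, adjusted p = 0.0327) and Bsg, a broadly expressed surface protein, by 1.15 (adjusted p = 0.00792). Without oncogenic Vav1 lymph node replicate 1 the spleen count was 9 of 18 higher, and without replicate 2 it was 9 of 17, where 25.4% and 25.5% of all genes were higher. The water channel gene Aqp1 (0.49) and the glucose transporter gene Slc2a1 (-0.43) did not pass in the lymph node.

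Regulators of red cell formation and haem genes were read beside them. Of 12 regulators, 7 rose in the lymph node and none fell, with a median of 1.59 (7.87% of all genes rose). Without oncogenic Vav1 lymph node replicate 1 the count was 10 (14.6% of all genes), and without replicate 2 it was 4 (11%). Among them were Gfi1b, a transcriptional repressor (1.89, adjusted p = 0.00881), the transferrin receptor gene Tfrc (2.75, adjusted p = 0.0186), and Zfpm1, the partner of GATA1 (1.61, adjusted p = 0.0197). Tfr2, the other transferrin receptor gene, also rose (adjusted p = 0.0191), but both GFP arrays were below the negative control medians. Its group mean was at least 2.23-fold higher, but this rests on replicate 2 (7.62). Oncogenic Vav1 lymph node replicate 1 read 5.54 for Tfr2, below the 40th percentile of its array. In the spleen none of the 12 rose and 2 fell, with a median of 0.41 (17.1% of all genes rose and 9.77% fell), and without either oncogenic Vav1 lymph node array in turn 4 rose and 3 fell. Of 9 measured haem genes, 3 rose in the lymph node, namely Alas2, the first enzyme of the pathway in erythroid cells (3.73, adjusted p = 0.00243), the mitochondrial iron importer gene Slc25a37 (3.17, adjusted p = 0.0137) and Cpox. The count was 9 of 9 without oncogenic Vav1 lymph node replicate 1 and 3 of 8 without replicate 2. None of the 9 passed in the spleen, where their median was 0.20, and 1 passed when either of these arrays was left out. The adult globin genes were not analysed here.

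Markers of other cells moved in the same comparisons, where 7.87% of all genes rose and 10.8% fell in the lymph node, and 17.1% rose and 9.77% fell in the spleen. In the lymph node 6 of 9 platelet and megakaryocyte markers rose, and their mean log2 level lay at 6.27 to 6.32 in GFP and 7.42 to 8.21 in oncogenic Vav1 arrays. T cell markers fell in 5 of 8 cases, from a mean of 9.60 to 9.62 in GFP to 7.78 to 8.81, and fat cell markers in 7 of 7, from 11.6 to 7.69 and 8.85. Oncogenic Vav1 lymph node replicate 2 had the highest mean of the 8 genes (10.8) and the lowest of the T cell markers (7.78). Without oncogenic Vav1 lymph node replicate 1 the counts were 8 of 9 platelet markers, 8 of 8 T cell markers and 7 of 7 fat cell markers, and without replicate 2 they were 5, 5 and 7. In both tissues 9 of 9 proliferation genes and 8 of 8 neutrophil markers rose. Proliferation genes had a mean of 6.80 to 7.43 on GFP arrays and 9.12 to 10.3 on oncogenic Vav1 arrays. Macrophage markers rose in 6 of 10 cases in the spleen and 3 of 10 in the lymph node, with means of 8.69 to 8.83 on GFP arrays and 9.34 to 9.72 on oncogenic Vav1 arrays. B cell markers fell in the spleen in 6 of 7 cases, from 11.3 and 11.4 to 10.0 to 10.5. The part of these cells in the differences of the 8 genes was not tested.

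**Figure D4:**
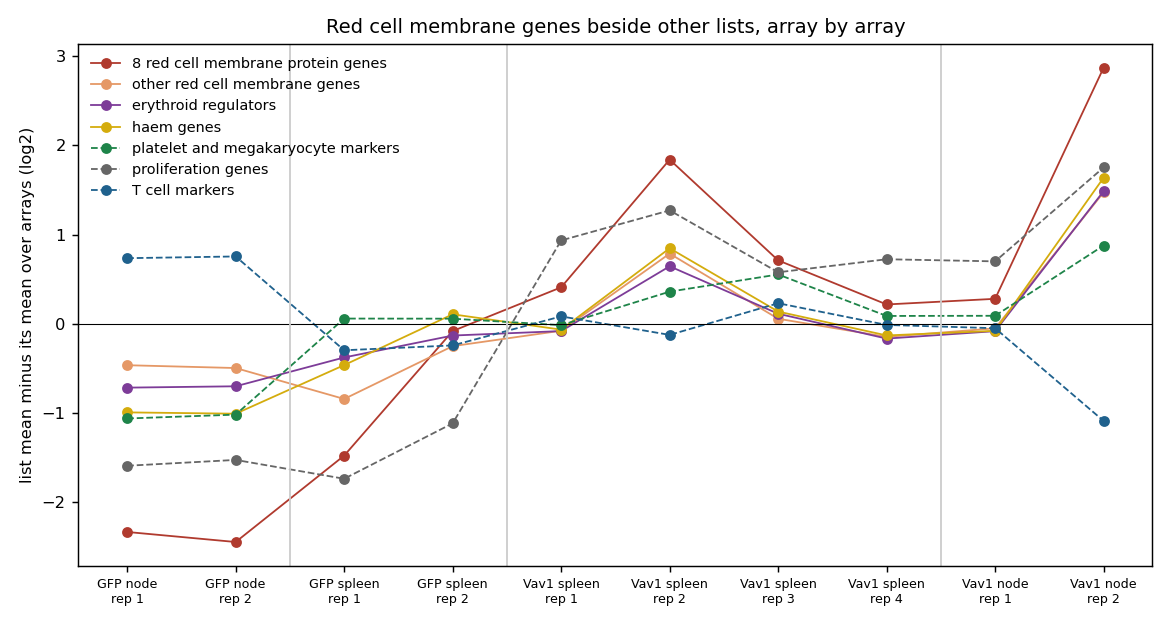
Mean log2 level of the 8 genes and of 6 other lists on each array, each list centred on its mean over the 10 arrays; lines join arrays only to guide the eye. The 8 genes range from 5.45 on GFP lymph node replicate 2 to 10.8 on oncogenic Vav1 lymph node replicate 2, where the T cell markers are at their lowest.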

How the data were processed

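The authors deposited log2 values from RMA, with R 3.6.3 named in the submitters' processing notes, and these were used unchanged. The table's 29129 probe sets include 19572 with exactly 1 gene symbol, which gave 19505 genes. Genes above the 40th percentile of their array on at least 2 arrays were tested (13393). limma 3.58.1 with statmod 1.5.0 in R 4.3.3 fitted the means of 4 groups on all 10 arrays (eBayes with a variance trend, two-sided, 6 residual degrees of freedom), with Benjamini-Hochberg adjustment over all genes tested. Tissue and interaction contrasts had the animal as a random block (correlation -0.113), so their estimates differ slightly from differences of group means. The fits were tested on simulated data. Array number limits the precision, and p-values measure the spread between these animals' arrays.

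The 8 genes and all lists were chosen with earlier results of these data known. Named are the 8 genes, Vav1, the 8 genes most correlated with their mean, up to 4 genes of each other list by lymph node p, and any other red cell membrane gene; Coch and Kdm5d were added after their values were seen. Replicate numbers were not read as pairs, since equal numbers stand for different named animals. Alternatives changed the variance model, the filter, the normalization, the weights of arrays, the summary of probe sets, the blocks and the arrays fitted (1 tissue, or 1 array left out); 2 more, the negative control median as a covariate and leaving out both arrays named ONCO3, were chosen after seeing the data. So were the counts of other lists without these arrays and the least folds. For these folds GFP lymph node values were raised to the negative control median of their array and set against the mean of the oncogenic Vav1 arrays.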

Additional observations from a re-analysis of the deposited data

Results flagged for a closer look

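Rhag in the oncogenic Vav1 spleen had 1 array far from the others. Replicate 2 read 10.32 and the other 3 lay between 8.29 and 8.54, so that the gap took 0.878 of the group's range, above Dixon's critical value for 4 arrays. Chance gives such a gap in about 1 in 20 groups when a single group is examined. All 8 genes were examined here, so a gap of this size in any of them is more likely than that. The other 7 genes stayed below the critical value and were also highest on replicate 2.

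The construct difference of Slc4a1 was called as differing between tissues. The lymph node difference exceeded that of the spleen by 2.83 (SE 0.73, limma adjusted p = 0.0406), with group means of 7.51 and 11.28 in the lymph node and 9.81 and 10.84 in the spleen. The call was lost without oncogenic Vav1 spleen replicate 1 or 4, and with the negative control median as a covariate. It was also lost without GFP spleen replicate 2 or either GFP lymph node array, runs that left 1 array in a group. With 1 array left out the estimate ran from 1.90 to 3.52. The call also rests on the oncogenic Vav1 lymph node arrays, whose tissue label is in doubt.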

How the results depend on the processing

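Counts below are of the 8 genes, and the share of all genes called moved as well. In the spleen it was 26.8% as reported, 38.4% with array weights, 20% with the replicate block and 39.1% with the spleen arrays alone. In the lymph node it was 18.7% as reported and 3.64% with its arrays alone. Between tissues in GFP it was 16.0% as reported, 29% with array weights, 15% with the replicate block and 21.3% with the negative control covariate. For the interaction it was 8.04%, and 7.61% with that covariate. In the spleen (0 called as reported), array weights gave 6, the replicate number as a block 4, the spleen arrays alone 8 and leaving out both arrays named ONCO3 8, and leaving out 1 array gave 0 to 8. In the lymph node (8), the lymph node arrays alone gave 1, the other alternatives 7 or 8, and leaving out 1 array 4 to 8. For lymph node against spleen in GFP (1), array weights gave 6, the replicate block 2, the negative control covariate 0, leaving out ONCO3 7 and leaving out 1 array 0 to 6. In oncogenic Vav1 (0), leaving out 1 array gave 0 to 7. The interaction (1) had 0 with the negative control covariate and 0 to 8 with 1 array left out. The replicate block changed no other count.

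Single-array omissions turned the sign of Add2 in the GFP tissue comparison (-0.44 to 0.61) and in the interaction (-0.81 to 2.07; -0.90 without ONCO3). For oncogenic Vav1 lymph node minus spleen they gave -0.34 to 1.13 for Slc4a1, -0.67 to 2.68 for Rhag, -0.75 to 2.48 for Epb42, -0.47 to 2.32 for Sptb, -0.79 to 1.30 for Ank1, -0.96 to 2.27 for Kel, -0.44 to 2.27 for Ermap and -0.66 to 2.22 for Add2. Without ONCO3 these were -0.31, -0.77, -0.73, -0.48, -0.71, -1.01, -0.50 and -0.76. The cause was not tested. Calls over all genes moved by more than 1.5 times in the spleen (3596 as reported, 916 with the negative control covariate, 5852 without ONCO3) and the lymph node (2500, 469 with its arrays alone, 1264 with array weights, 943 to 4651 with 1 array left out). With 1 array or both ONCO3 arrays left out they ran from 775 to 4704 in the GFP tissue comparison (2144 as reported), from 3 to 3810 in that of oncogenic Vav1 (5) and from 326 to 4205 in the interaction (1077). All construct differences of the 8 genes stayed positive in every alternative run. Signal near background on GFP lymph node arrays limits the fold of Rhag, Epb42, Sptb, Kel, Tfr2 and Icam4. On GFP spleen replicate 1, Rhag (5.41), Kel (5.64) and Add2 (5.42) also lay below the negative control median of 5.87, which limits their spleen differences.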
